A study of Homo sapiens with 4 samples.

Results

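The genes described here are 10 parts of the machinery that lengthens and protects human chromosome ends. They are the telomerase reverse transcriptase gene TERT, the telomerase RNA gene TERC, the dyskerin complex genes DKC1, NOP10, NHP2 and GAR1, and the shelterin genes TERF1, TERF2, TINF2 and POT1. They were chosen by name, and each of the 10 names matched exactly 1 of the 60675 gene rows of the deposited table. RNA was measured in 4 replicate libraries of HT1080, a human fibrosarcoma line known to carry telomerase activity, in which KDAC8, the lysine deacetylase encoded by HDAC8, was knocked out. All 4 libraries share that genotype, with no parental line or other control among the libraries analysed here, so the values below are levels in knockout cells and no effect of the knockout can be read from them. The labels do not say whether the cells are 1 clone or whether the replicates were separate cultures, so a p-value over libraries reflects the spread of these 4 samples alone, and that spread may be technical.

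Telomerase is a ribonucleoprotein. The TERT protein copies a short template in the TERC RNA onto chromosome ends, adding the telomeric repeat TTAGGG. TERC folds at its 3′ end like a box H/ACA small nucleolar RNA, and dyskerin (DKC1), NOP10, NHP2 and GAR1 bind that fold. The same 4 proteins bind all other box H/ACA RNAs, which guide the conversion of uridine to pseudouridine in ribosomal and spliceosomal RNA. Shelterin coats the repeats: the products of TERF1 and TERF2 bind the double strand, POT1 binds the single-stranded overhang, and TINF2 joins them. Most somatic human cells keep TERT silent while they express TERC, the dyskerin complex and shelterin.

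The libraries held 39454210 to 45828807 counts. Levels are given as CPM, the counts scaled so that libraries of different depth can be compared. Errors are the SD of the 4 replicates (n = 4). HDAC8 itself had 1.98, 2.11, 2.10 and 2.53 CPM in replicates 1 to 4. These counts cover all HDAC8 exons and so do not check the knockout label. The mesenchymal markers VIM, CD44, FN1 and COL6A3 were all present, and their summed level was 10173 to 10785 CPM per library. EPCAM and CDH1, epithelial markers, had 0 counts in all 4 libraries. The leukocyte marker PTPRC and the endothelial marker PECAM1 had at most 2 counts in any library.

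The template and the 3′ end of TERC are shown first, because the counts at this gene turn on which bases belong to which table row. TERC (ENSG00000270141) lies at chr3:169764520-169765060 on the reverse strand (GRCh38, GENCODE release 29), is a single exon of 541 bases and is classed as a long noncoding RNA. The first 60 bases of the annotated transcript, with the longest run that matches the complement of the telomeric repeat in capitals, hold the template at bases 46 to 56.
TERC bases 1 to 60: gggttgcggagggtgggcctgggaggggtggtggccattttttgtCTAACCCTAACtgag
The next stretch is the ACA end of the fold that the dyskerin complex binds. Its capitals mark the ACA box at bases 446 to 448, which stands 3 bases before base 451, the known end of the mature telomerase RNA.
TERC bases 372 to 451: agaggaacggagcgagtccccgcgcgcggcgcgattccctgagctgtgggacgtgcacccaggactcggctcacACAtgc
The annotated transcript runs on for 90 bases past that end.
TERC bases 452 to 541: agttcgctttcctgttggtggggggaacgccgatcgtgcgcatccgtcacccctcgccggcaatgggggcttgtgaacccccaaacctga
A run of 11 bases of the repeat complement (any phase of CCCTAA, transcript strand only) was present in 33 of 64626 annotated transcripts of 400 to 700 bases, or 0.0511%. An ACA followed by exactly 3 final bases ended 2.05% of those transcripts. A match is a description of letters, and the sequence is that of the reference.

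Telomerase RNA was split between 2 rows of the table, and the row named TERC held the smaller share in every library. A second row, named Telomerase-vert (ENSG00000277925), covers bases 14 to 451 of the same strand, and its 438 bases are identical in letters to that stretch of TERC. Of the 541 bases of TERC, 81.0% are therefore common to both rows, and 13 bases before and 90 bases after belong to the TERC row alone.

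The TERC row had 217, 519, 343 and 304 expected counts in replicates 1 to 4. The Telomerase-vert row had 2566, 5369, 3720 and 2814. The counts of both rows were fractional, yet they summed to whole numbers in 4 of 4 libraries (within 0.006 counts), at 2783, 5888, 4063 and 3118. The fractional parts therefore cancelled within this pair of rows. The TERC row received 7.80% of the locus in replicate 1 (exact binomial 95% interval 6.83% to 8.86%), 8.81% in replicate 2, 8.44% in replicate 3 and 9.75% in replicate 4 (8.73% to 10.8%). The intervals cover counting error only and leave out the error of dividing shared reads between the rows. Counts do not show where in a row the reads lay, so the share is no measure of RNA that extends past base 451.

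**Figure D1:**
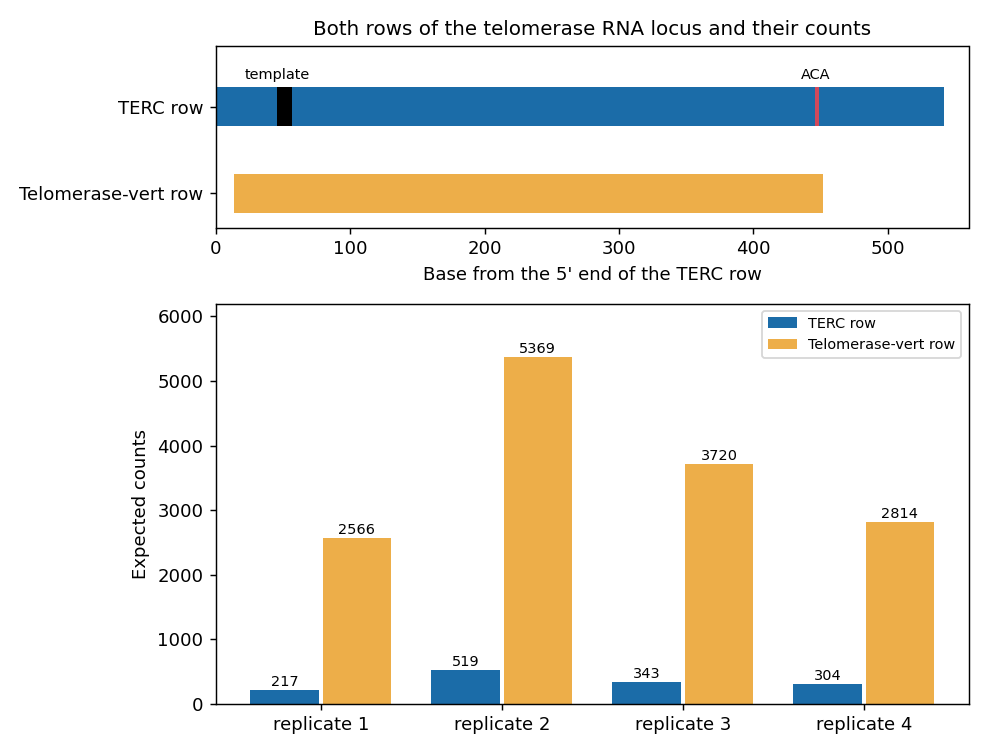
The upper panel maps the TERC row (541 bases) and the Telomerase-vert row (bases 14 to 451) by base from the 5′ end of TERC, with the template in black and the ACA box in red. The lower panel plots the expected counts of both rows in each library: the Telomerase-vert bar is the taller in all 4 libraries, and both rows are highest in replicate 2.

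In CPM the TERC row stood at 5.37, 12.3, 7.57 and 7.19 in replicates 1 to 4, a mean of 8.11 ± 2.97. Replicate 2 was high and replicate 1 low. Adding the Telomerase-vert row gave 68.8, 139.8, 89.7 and 73.8 CPM, a mean of 93.0 ± 32.4, so the level of telomerase RNA differed more than 10-fold with the choice of rows. The range between the highest and lowest library was 2.30 times for the TERC row and 2.03 times for the sum. Both varied beyond counting noise in a chi-square test of homogeneity over the 4 libraries, with Benjamini-Hochberg adjusted p of 6.9e-28 for the row and 1.5e-304 for the sum. Without replicate 2 the ranges were 1.41 and 1.303 times.

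Of 6 other structural RNAs, all transcribed by RNA polymerase III, RPPH1 and RN7SK had the highest and lowest library of TERC, RMRP shared the lowest only, and 3 had no counts. RPPH1, the RNA of ribonuclease P, had 7215, 13132, 9228 and 7545 CPM, a range of 1.82 times. RN7SK, which restrains transcription elongation, ranged 1.49 times. RMRP, the RNA of ribonuclease MRP, ranged 1.42 times, with its highest value in replicate 3 and its lowest in replicate 1. The names RPPH1 and RMRP both occur on 2 rows, of which the higher is given. Unlike these, TERC is known as a product of RNA polymerase II. The vault RNA VTRNA1-1 and the Y RNAs RNY1 and RNY3 had 0 counts in all 4 libraries. Of the 2065 gene rows that varied and ranged 1.5 times or more, 8.38% had the order of TERC, highest in replicate 2 and lowest in replicate 1. That set holds RPPH1 but not RN7SK, which ranged 1.49 times. The part of library composition in the TERC values was not tested.

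TERT mRNA was present in every library. TERT (ENSG00000164362, chr5:1253147-1295069, reverse strand, protein-coding) had 445, 477, 491 and 556 counts. The exact Poisson 95% interval was 405 to 488 counts in replicate 1 and 511 to 604 in replicate 4, and it covers counting error only. These counts gave 11, 11.3, 10.8 and 13.2 CPM, a mean of 11.6 ± 1.07. Replicate 4 was the highest and the other 3 lay within 0.5 CPM of each other. The difference between libraries passed the chi-square test (adjusted p = 0.0116), and without replicate 4 it did not (adjusted p = 0.836). In bulk RNA, fewer cells with a transcript and less transcript per cell cannot be told apart.

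The genes that flank TERT were not all silent or all active. The nearest annotated gene on one side, the amino acid transporter SLC6A18, and the nearest on the other side, the microRNA MIR4457, both had 0 counts in all 4 libraries. The next coding gene beyond MIR4457, CLPTM1L, named after its value was seen, starts 22674 bases from TERT and stood at 181 ± 6.21 CPM. Beside TERC, the testis gene ACTRT3, 1860 bases away, had 4, 0, 0 and 0 counts. The nearest row on the other side, the U6 pseudogene RNU6-637P, had 0 counts in every library. The next coding gene beyond it, MECOM, 100901 bases from TERC and also named after its value was seen, stood at 8.44 ± 0.616 CPM. The Y RNAs had 0 counts too, so a 0 for the short RNAs MIR4457 and RNU6-637P does not show that they were absent.

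In CPM, without length, the dyskerin complex genes DKC1, NHP2 and NOP10 gave the most abundant mRNAs of the set, with means above 60 CPM. GAR1 lay near the shelterin gene TERF2 (38.7 ± 1.67 CPM), which exceeded it in replicates 2 and 4. DKC1 (ENSG00000130826, chrX:154762742-154777689), which encodes the pseudouridine synthase itself, had 105, 106, 110 and 98.7 CPM, a mean of 105 ± 4.83. Replicate 4 was lowest and the range was 1.12 times. NHP2 (ENSG00000145912, chr5:178149460-178153967), a small RNA-binding subunit, had 91.1, 115, 113 and 89.6 CPM, a mean of 102 ± 13.7. Replicates 2 and 3 were high and replicates 1 and 4 low, with nothing in between. NOP10 (ENSG00000182117, chr15:34341713-34343177), the smallest subunit, had 67.2, 78.5, 66.2 and 59.3 CPM, a mean of 67.8 ± 7.99, highest in replicate 2. GAR1 (ENSG00000109534, chr4:109815510-109824740), the subunit that joins last during assembly, had 40.1, 39.9, 41.0 and 37.0 CPM, a mean of 39.5 ± 1.72.

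The 4 subunits did not keep 1 ratio over the libraries. The log2 ratio of DKC1 to GAR1 per kilobase of exon was 0.37 ± 0.02, and counting alone would give an SD of 0.04, so a closer tie than counting allows cannot be read from it. The log2 ratio of NHP2 to DKC1 was 1.27 in replicate 1 and 1.59 in replicate 2. The NHP2 row shares 414 exonic bases with RMND5B on the opposite strand. NHP2 and RMND5B had fractional counts that summed to whole numbers in 4 of 4 libraries, so reads were shared between them across strands. The strand setting is not given in the sources used here. Whether reads from the opposite strand entered other rows was not tested. With all RMND5B reads added, an upper limit, NHP2 would stand at 129.9 ± 15.3 CPM. The pseudogene rows NHP2P1 and NHP2P2 had at most 1 count per library. The small nucleolar RNAs SNORA36A and SNORA56, which lie within DKC1, also had 0 counts in all 4 libraries. They share 117 and 129 exonic bases with DKC1 on the same strand. Whether their reads were counted in the DKC1 row was not tested. Since the ubiquitous Y RNAs were at 0 too, a 0 for such short RNAs does not show that they were absent.

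**Figure D2:**
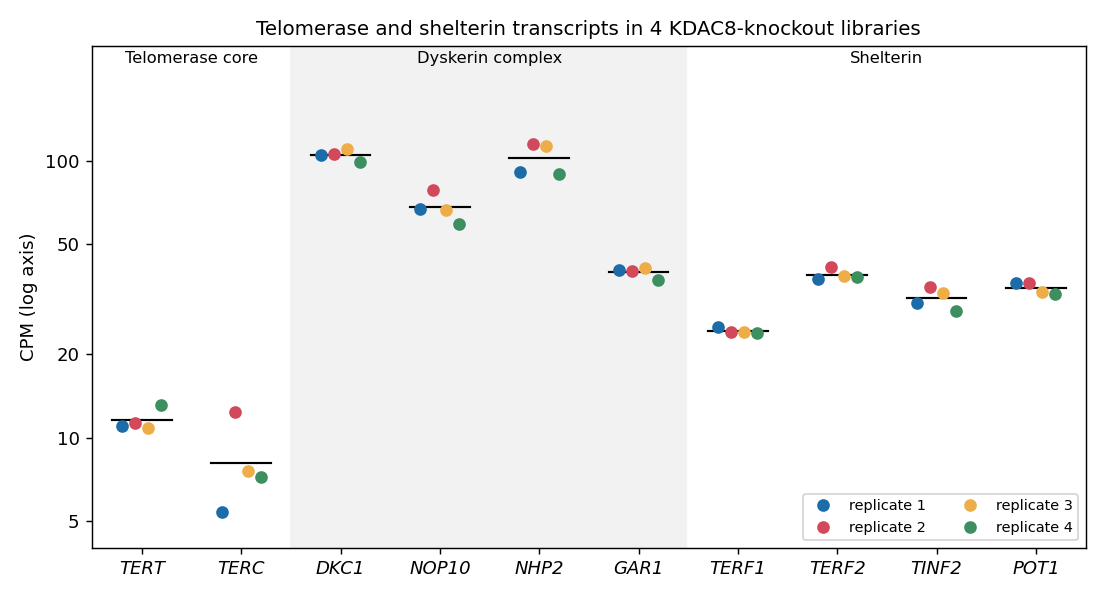
CPM on a log axis of the 10 genes in each of the 4 libraries, with 1 point per library and a bar at the mean, grouped by role. TERT and the TERC row lie lowest, DKC1, NHP2 and NOP10 highest, and the shelterin genes between 23.9 and 41.2 CPM.

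The shelterin genes lay close together in CPM. TERF2 (ENSG00000132604, chr16:69355561-69408571), whose product keeps chromosome ends from being joined, had 37.5, 41.2, 38.2 and 38 CPM, a mean of 38.7 ± 1.67. POT1 (ENSG00000128513, chr7:124822386-124929983), which covers the single-stranded overhang, had 36.3, 36.2, 33.5 and 32.9 CPM, a mean of 34.7 ± 1.77. TINF2 (ENSG00000092330, chr14:24239643-24242674), the bridging subunit TIN2, had 30.7, 35.0, 33.3 and 28.6 CPM, a mean of 31.9 ± 2.84. TERF1 (ENSG00000147601, chr8:73008864-73048122), whose product TRF1 helps forks copy telomeres, had 25, 24.0, 24.0 and 23.9 CPM, a mean of 24.2 ± 0.505. TERF1 was the steadiest of the 10 genes, with a range of 1.05 times.

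Both remaining shelterin subunits were present. In CPM, ACD lay near TERF1, and TERF2IP above all 4 shelterin genes of the set. Per kilobase of exon ACD stood at 8.03 CPM, against 2.74 for TERF1, and TERF2IP at 15.1. ACD, which encodes TPP1, the partner of POT1 that recruits telomerase, had 24.1, 29.2, 28.1 and 22.2 CPM, a mean of 25.9 ± 3.29. TERF2IP, which encodes RAP1, the partner of TRF2, had 46.7, 54.7, 54.6 and 47.5 CPM, a mean of 50.9 ± 4.34. Both were higher in replicates 2 and 3 than in replicates 1 and 4, and the share of all genes with that order was not counted. Of the 5 pseudogene rows of TERF1, TERF1P1, TERF1P2 and TERF1P4 had 0 counts in all 4 libraries, TERF1P3 had 3 counts in replicate 4 only, and TERF1P5 had at most 8.49 counts. The antisense row POT1-AS1, which shares 111 exonic bases with POT1, had 13 to 22 counts.

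Every library held at least 1 CPM of each of the 10 genes, the level taken here as detected. The same held for 21.4% of all gene rows and for 58.7% of protein-coding rows. The median of the 10 was 36.7 CPM, against 27.6 CPM over all detected genes. Per kilobase of exon the median was 13.4 CPM, against 6.32 CPM over the 11566 detected protein-coding genes. The 10 include the noncoding TERC row, and without it the middle gene was TINF2, at 11.8 CPM per kilobase.

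Levels of different genes can be compared only per length, and the order changed when length was taken into account. Per kilobase of exon, where length joins all annotated exons, NOP10 was highest at 122 ± 14.4 CPM and NHP2 next at 67.6 ± 9.05. DKC1 followed at 25 ± 1.15, GAR1 at 19.3 ± 0.839, the TERC row at 15.0 ± 5.48 and TINF2 at 11.8 ± 1.05. TERF2 (6.89 ± 0.297), POT1 (5.89 ± 0.3), TERF1 (2.74 ± 0.0572) and TERT (2.52 ± 0.232) came last. Over the longest annotated transcript NHP2 stood at 118 CPM per kilobase, close to NOP10, which stayed at 122, and GAR1 was at 32.3, TERF2 at 12.98 and TERF1 at 6.73. Of the detected protein-coding genes, with joined exons, 98.0% lay below NOP10 on this scale and 25.5% lay below TERT. Both TERC rows together, over the 541 bases of TERC, gave 172 ± 59.96 CPM per kilobase, above NOP10 in 4 of 4 libraries.

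This order was set by the means of the same 4 libraries, so agreement of each library with it is partly built in. With joined exons as length, 6 of the 9 pairs of neighbours kept the same order in all 4 libraries. The 3 that did not were GAR1 and the TERC row (log2 ratio 0.43 ± 0.50), the TERC row and TINF2 (0.29 ± 0.42), and TERF1 and TERT (0.13 ± 0.14). With joined exons as length, these neighbours do not differ beyond their spread. With the longest annotated transcript as length TERF1 exceeded TERT by 1.23, and with no length by 1.07, on the log2 scale. For each of the other 6 pairs an exact two-sided permutation test that flips signs by library gave p = 0.13 (2 of 16 sign assignments), or 0.19 after Benjamini-Hochberg adjustment over the 9 pairs. With 4 libraries no smaller p exists, and 0.05 is out of reach. TINF2 exceeded TERF2 by 0.77 ± 0.09 and POT1 exceeded TERF1 by 1.10 ± 0.06 on the log2 scale per kilobase. With the longest transcript as length these differences were 0.18 and 0.34. On that length NOP10 over NHP2 was 0.054 and DKC1 over GAR1 0.079, while NHP2 over DKC1 rose to 1.78 and TERF2 over POT1 to 0.61.

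The dyskerin complex exceeded shelterin, and telomerase RNA exceeded TERT mRNA, in every library. The mean log2 level per kilobase of the 4 dyskerin complex genes was 2.89 ± 0.06 above that of the 4 shelterin genes, which is 7.42-fold. The TERC row exceeded TERT by 2.51 ± 0.51 on the log2 scale per kilobase, which is 5.71-fold. With both TERC rows the difference was 6.04 ± 0.51, or 65.8-fold. Each of these comparisons had the same direction in 4 of 4 libraries, and the same exact permutation test gave p = 0.13, its smallest value. In CPM without length, the TERC row lay below TERT on average (log2 ratio -0.58), and above it in replicate 2.

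**Figure D3:**
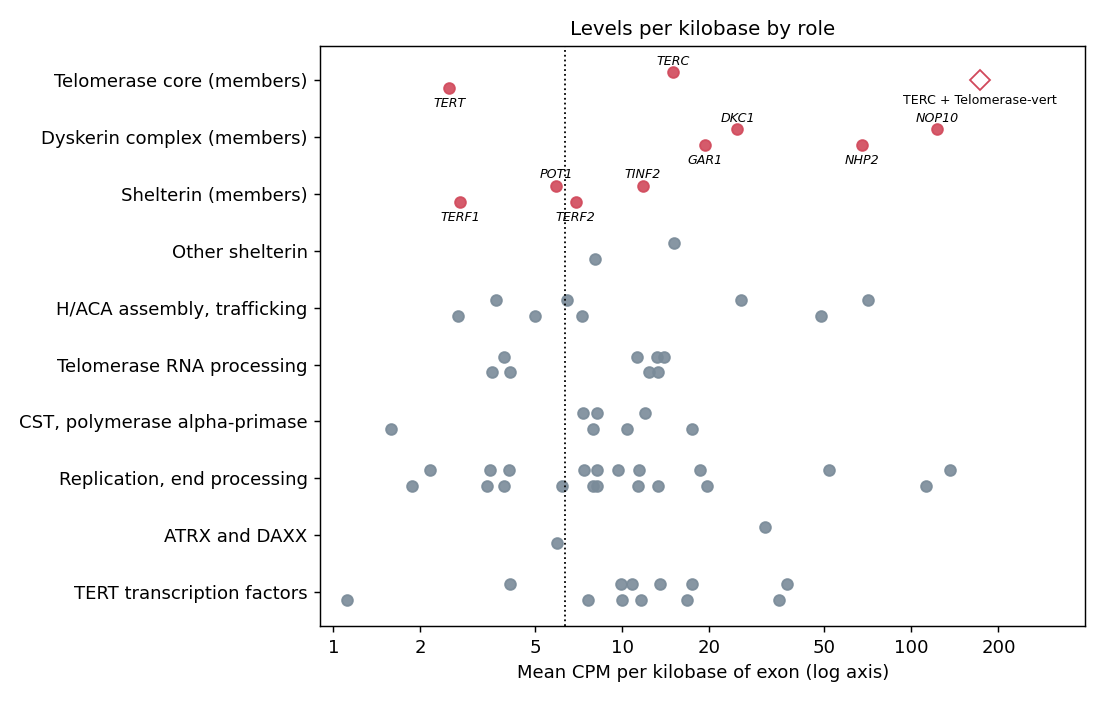
Mean CPM per kilobase of exon on a log axis, with 1 point per gene; the 10 genes are in red and named, and the other pathway genes are in grey by role. The open diamond is the sum of both TERC rows (172), and the dotted line is the median of detected protein-coding genes (6.32).

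Between libraries, 9 of the 10 genes varied by the chi-square test at an adjusted p under 0.05, against 59.2% of the 16790 genes tested. The test finds smaller differences in genes with more counts. Of the 8 genes with a mean of 500 counts or more, 7 varied, near the 78.9% of all genes above that count. TERF1 was the exception (adjusted p = 0.767). TERF2 (adjusted p = 0.0482) and GAR1 (adjusted p = 0.0391) were just inside the threshold. Without replicate 4 only 5 of the 10 varied, and TERT, DKC1, GAR1 and POT1 were the genes that no longer passed, while TERF2 kept its call. Over all genes the number that varied was 9944, and 7786 without replicate 4.

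The differences were small apart from that of TERC. Only TERC both varied and ranged 1.5 times or more, as did 12.3% of the genes tested. Without replicate 2 TERC ranged 1.41 times and none of the 10 met both conditions. The median range of the 10 was 1.17 times, against 1.15 times over tested genes with a mean of 500 counts or more. Of the 10, 8 reach that mean, so the sets are not matched. Of the 9 that varied, 6 were lowest in replicate 4, where 31.3% of all varying genes had their lowest value. TERT was highest in that library. The summed level of the dyskerin complex was 304, 339, 331 and 285 CPM in replicates 1 to 4, a range of 1.19 times. That of the 4 shelterin genes was 129, 136, 129 and 123 CPM, a range of 1.11 times.

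**Figure D4:**
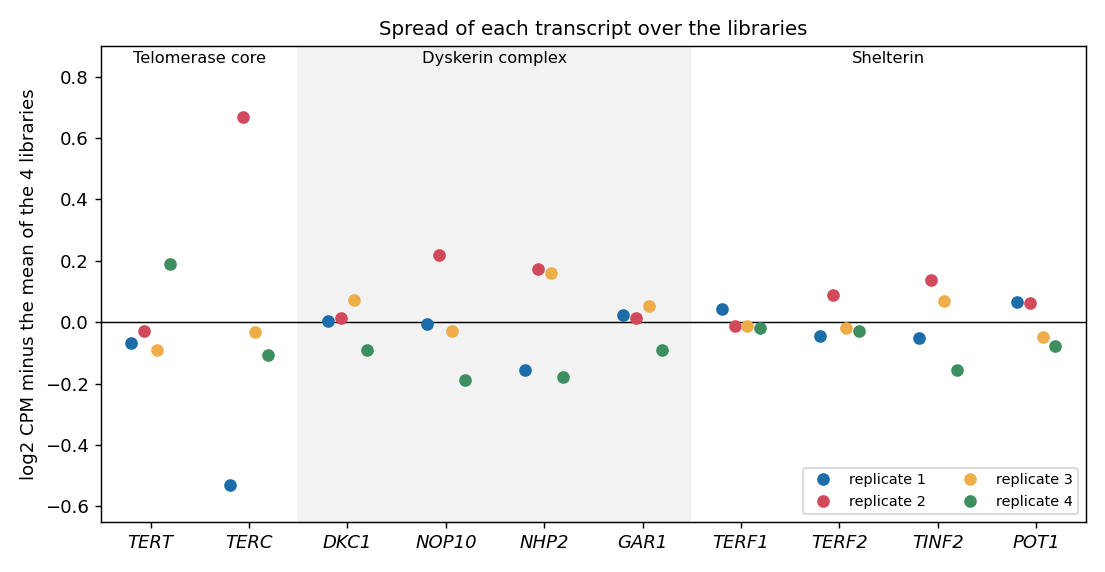
Deviation of each gene's log2 CPM from its mean over the 4 libraries, with 1 point per library. The TERC row spans 0.67 in replicate 2 to -0.53 in replicate 1, while TERF1 stays between 0.04 and -0.02.

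The factors that assemble and carry telomerase were all detected, 8 of 8. For this detection count and those of the lists below, the share over all protein-coding rows was 58.7%. RUVBL2 (70.9 CPM per kilobase) and RUVBL1 (25.6), helicases that help build box H/ACA particles, and the nucleolar chaperone NOLC1 (48.7) were highest per kilobase. The assembly factor NAF1, which GAR1 replaces in the mature particle, stood lower at 5.00 CPM per kilobase, and the ATPase NVL at 3.66. WRAP53, which encodes TCAB1, the protein that brings telomerase to Cajal bodies, was lowest at 2.69 CPM per kilobase, near TERT. In CPM, WRAP53 had 12.2, 16.0, 13.3 and 13.2. Replicate 2 was highest, as it was for NAF1, RUVBL1 and RUVBL2 of the same list. SHQ1 and COIL were highest in replicate 1, and NVL and NOLC1 in replicate 3. The share of all genes highest in replicate 2 was not counted. In this list 5 of 8 genes varied. For this count of varying genes and those of the lists below, the share over all genes tested was 59.2%. It was 78.9% over genes with a mean of 500 counts or more.

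Genes that process or degrade the telomerase RNA were also all detected, 8 of 8, and 7 varied. The cap methyltransferase TGS1 (13.9 CPM per kilobase), the deadenylase PARN (13.2), which trims the TERC 3′ end, and the exosome nuclease DIS3 (13.2) led the list. The poly(A) polymerase TENT4B, listed under its older name PAPD5, had 3.54 CPM per kilobase. The exosome adaptor subunit ZCCHC8 (3.90) and the decapping enzyme DCP2 (4.07) were the other low members.

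The CST complex and its partner polymerase, which fill in the strand opposite the telomerase product, were detected in 7 of 7 cases. PRIM1 (17.5 CPM per kilobase), STN1 (12, listed as OBFC1) and PRIM2 (10.4) were highest, and CTC1 (1.58), POLA2 (7.30) and TEN1 (7.92) lowest. Of the 7 genes 1, PRIM1, varied between libraries, against 59.2% of all genes tested. The summed level ranged from 223 to 230 CPM.

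All 20 genes of telomere replication and end processing were detected, and 16 varied. The Ku genes XRCC6 (136 CPM per kilobase) and XRCC5 (112) and the flap nuclease FEN1 (52.0) were highest. The nuclease scaffold SLX4 (1.87), the telomere-binding zinc finger gene ZBTB48 (2.16) and the telomerase inhibitor PINX1 (3.39) were lowest. ATRX and DAXX, whose loss is common in tumours that maintain telomeres without telomerase, were both present. ATRX had 115 ± 6.95 CPM and DAXX 95.6 ± 6.07 CPM.

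Transcription factors known to act on the TERT promoter were detected in 12 of 12 cases, and 9 varied. ETS1 (37.1 CPM per kilobase), MYC (34.8) and SP1 (17.4) were highest. WT1 (1.12), the MYC antagonist MXD1 (4.07) and GABPB1 (7.61), a subunit of the ETS factor GABP, were lowest. The meiotic telomere complex was not detected in any of its 3 genes. TERB2 had 0 counts throughout, and 3 counts in the shallowest library would be 0.0742 CPM. MAJIN had 3 counts in replicate 1 only, and TERB1 had at most 2.10 counts.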

How the data were processed

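The authors deposited 1 table of expected counts per Ensembl gene for 4 HT1080 KDAC8-knockout libraries, made from ribosomal RNA-depleted total RNA per the labels' protocols. The submitters' processing notes name GRCh38 and RSEM 1.3.3, Bowtie2 2.5.4, DESeq2 1.46.0 and Trimmomatic 0.39, without their roles. No annotation release, strand setting or filter is stated in the sources used here. Expected counts divide a read among rows it fits, so rows that share bases are uncertain.

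Counts were rounded and scaled with edgeR 4.0.16 (TMM, factors 1.02, 0.963, 0.988 and 1.03). Homogeneity over libraries was tested by chi-square for genes with a mean of 10 counts or more, with Benjamini-Hochberg adjustment over all of them. No test between groups was possible with 1 group. Ratios within a library were tested by exact sign-flip permutation. Exonic lengths, positions and the TERC sequence came from GENCODE release 29, which holds 94.03% of the gene IDs. Lengths are of annotated exons, whichever transcripts the cells make. Intervals and floors cover counting error only. Code for the chi-square test was tested on simulated data.

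The genes and lists were chosen with earlier results of these data known. Named were all 10 genes, all genes of lists of 6 or fewer, the 3 highest and 3 lowest per kilobase of longer lists, the nearest rows beside TERT and TERC, and pseudogene and antisense rows by name. Correlation over 4 libraries was not attempted. Alternatives changed the scaling (DESeq2 1.42.0 or totals), filter, rounding, gene length and libraries.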

Additional observations from a re-analysis of the deposited data

Results flagged for a closer look

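Of 29 quantities checked for a library far from the other 3, 2 stood out, and chance alone is expected to mark about 1 in 20. TERF1 was higher in replicate 1 (25 CPM) than in the other libraries (23.9 to 24.0 CPM), with a gap of 0.873 of the whole range. That range is within counting noise by the chi-square test given above. The log2 ratio of TERF2 to POT1 per kilobase was lower in replicate 1 (0.12) than in the others (0.26 to 0.28), with a gap of 0.877 of the range.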

How the results depend on the processing

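All 10 genes stayed detected under both other scalings, at 0.5 and 5 CPM and without any 1 replicate. The number that varied was 9 (9944 of all genes), and 8 with DESeq2 size factors (9976), 7 with total counts (10110) and 7 with no filter on low counts (10381). Leaving out 1 replicate gave 5 to 9 (7786 to 9376), the 5 without replicate 4. NHP2, NOP10, TERC and TINF2 passed in every alternative run, and TERF2 lost its call in 5 of 9 and GAR1 in 3 of 9. Leaving out 1 replicate moved the log2 ratio of TERC to TERT between 2.28 and 2.67 and that of the dyskerin complex to shelterin between 2.87 and 2.91. The latter was 2.62 with the longest transcript as length, 1.19 with no length and 2.98 with RMND5B reads added to NHP2. Adding the Telomerase-vert row, an alternative chosen after seeing the data, moved TERC to TERT to 6.04, or 6.30 over the 451 bases to the mature end, and turned GAR1 over TERC to -3.10. With no length scaling TERC to TERT turned to -0.58, NOP10 over NHP2 to -0.59, NHP2 over DKC1 to -0.049, TERC over TINF2 to -2.04 and TINF2 over TERF2 to -0.28. With the longest transcript as length, TERC over TINF2 turned to -0.034 and NOP10 over NHP2 came to 0.054. These changes follow from the lengths and rows used. No paired analysis was possible because the labels give 1 group.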
